A study of Mus musculus with 14 samples.

Results

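The 3 tropomyosin genes Tpm1, Tpm2 and Tpm3 were followed exon by exon in C2C12, a line of mouse myoblasts able to form muscle fibres in culture, after depletion of isoforms of Quaking (Qk), an RNA-binding protein. Every exon bin with 1 of these 3 gene symbols in the authors' deposited splicing table was taken, in genomic order, which gave 41 of the 4019 bins and 3 of the 228 genes of that table. An exon bin is a piece of exon that transcripts of a gene use or skip as a unit, and its use is its share of the gene's reads. The groups were cells given control siRNA (control), siRNA against the Qk5 isoform (Qk5 depletion) or siRNA against Qk6 and Qk7 (Qk6/7 depletion), with 3 replicates each. All groups were the same line, grown in DMEM with serum and transiently transfected, and RNA was sequenced after removal of ribosomal RNA. The labels do not say whether replicates were separate cultures, and a p-value may therefore rest on technical spread alone. The deposited tables hold no value per replicate, so levels and folds below carry no SD, and depth per sample is unknown. The design asked which RNAs change in splicing or level when 1 class of Qk isoform is removed.

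Tropomyosins are coiled-coil dimers that lie end to end along actin filaments. In striated muscle they act with troponin to control the access of myosin to actin, and in other cells they stabilise actin cables such as stress fibres. Each gene makes many proteins by choosing between start exons (1a for long forms, 1b for short forms), between the internal partners 2a and 2b and 6a and 6b, and among end exons 9a to 9d. Mature skeletal muscle is known for Tpm2 with exons 6b and 9a, for Tpm1 with exons 2b and 9a, and for Tpm3 starting at 1a and ending in 9a. Smooth muscle is known for Tpm1 exon 2a, brain for exon 9c, and exon 9d is the usual end outside striated muscle. Qk isoforms differ at the C-terminal end, and Qk5 is the mainly nuclear one.

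A value was deposited for 40 of the 41 bins, the exception being a bin of 1 nt at the end of Tpm2 exon 9d. The test was DEXSeq, which gave each bin a single p-value for any difference among the 3 conditions, so neither depletion was tested alone. At an adjusted p under 0.05, 6 of the 40 tropomyosin bins were called in the authors' deposited table. Of the 3737 bins of that table with an adjusted p, 6.18% were called, and over all bins tested by DEXSeq the share was 0.163% (231 of 141542). A gene is in the table only because it has a bin with adjusted p under 0.1, so the table's genes were selected on this same test and the share is not read further. Tpm1 had 3 called bins, Tpm2 had 2 and Tpm3 had 1, and 7 of the 192 genes with a called bin had 3 or more. All 6 called bins belong to exons that only some tropomyosin transcripts use. The 16 bins of exons named common had log2 folds within 0.1 of 0 in both depletions in the authors' deposited table. That name follows tropomyosin usage, and some annotated coding transcripts lack some of these exons. Exons 7 and 8 of Tpm3, for example, are each in 5 of 7 annotated coding transcripts. Both depletions were set against the same control samples.

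**Figure D1:**
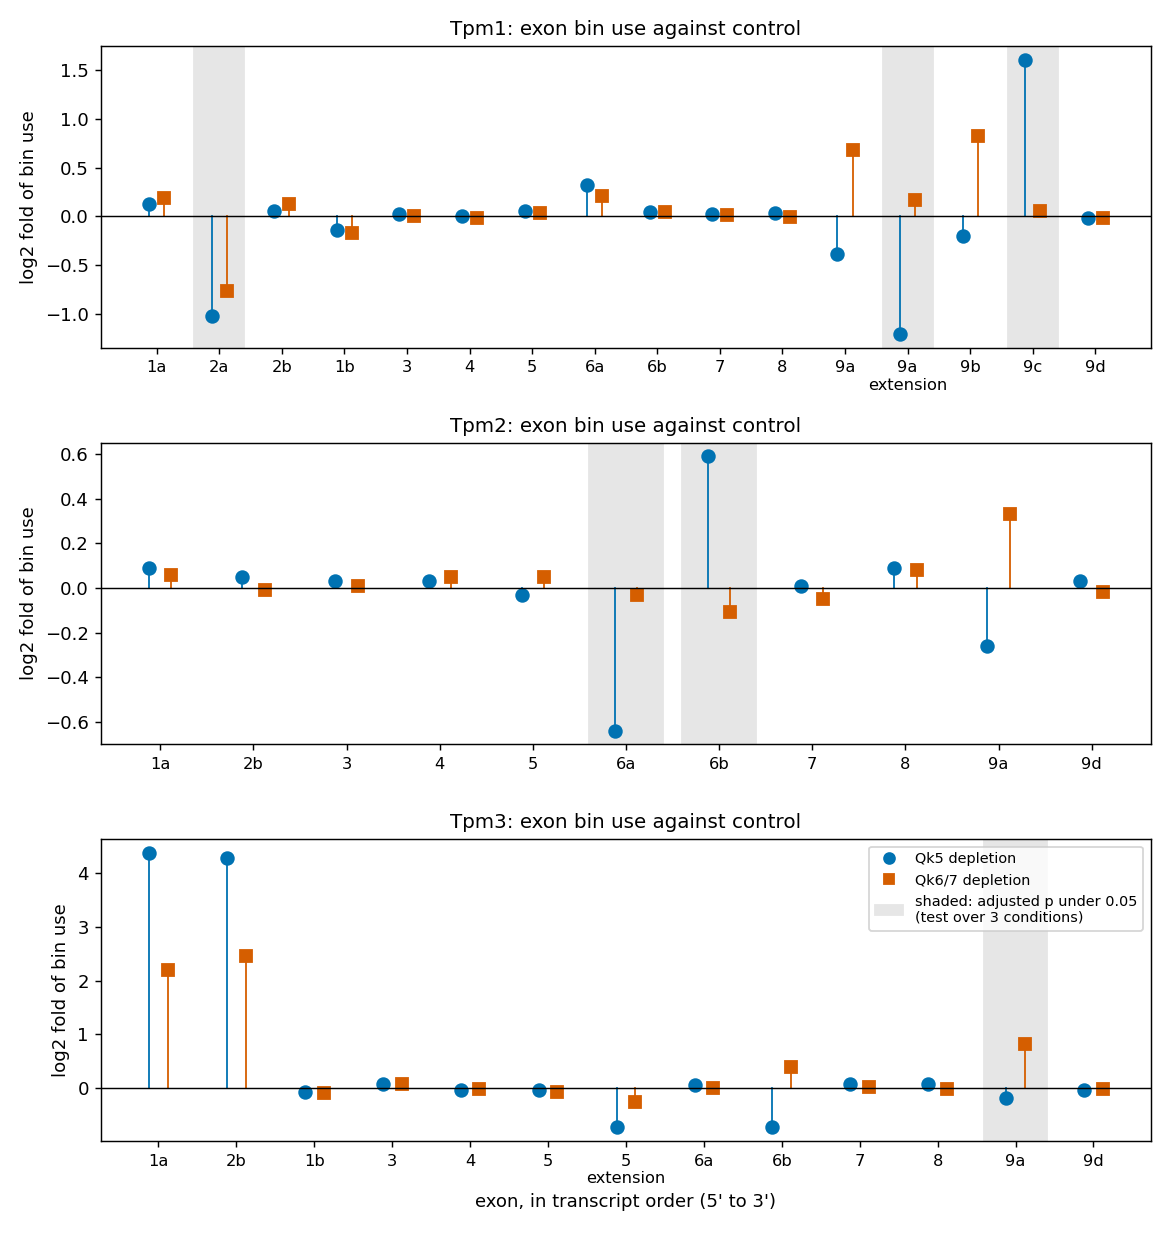
Log2 fold of exon bin use against control (vertical axis) for each bin of Tpm1, Tpm2 and Tpm3 in transcript order (horizontal axis), with circles for Qk5 depletion and squares for Qk6/7 depletion. Grey bands mark the 6 bins with adjusted p under 0.05 over the 3 conditions, and the common exons 3, 4, 5, 7 and 8 lie near 0 in every panel.

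Both members of a mutually exclusive pair were called only for exons 6a and 6b of Tpm2, of which no annotated coding transcript holds both. The exons have the same length, 76 nt, and are the same letter at 41 of 76 positions (53.9%). They are printed here because their folds in Qk5 depletion were opposite, with capitals where they differ from each other.
Tpm2 exon 6a: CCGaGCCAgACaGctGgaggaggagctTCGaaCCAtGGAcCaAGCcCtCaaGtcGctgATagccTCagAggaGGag
Tpm2 exon 6b: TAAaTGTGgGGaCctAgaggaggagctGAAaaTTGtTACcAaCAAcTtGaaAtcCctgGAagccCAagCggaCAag
Exon 6a has a G or C at 60.5% of its bases and exon 6b at 47.4%.

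Exon 6a of Tpm2 (chr4:43531875-43531950, mm9, minus strand) is the form of smooth muscle and nonmuscle cells. Its log2 fold of use was -0.64 in Qk5 depletion (0.642-fold) and -0.03 in Qk6/7 depletion (0.979-fold), with a DEXSeq adjusted p of 0.000192 in the authors' deposited table. Exon 6b (chr4:43531516-43531591), the skeletal muscle form, stood at 0.59 (1.51-fold) in Qk5 depletion and -0.11 (0.927-fold) in Qk6/7 depletion, with an adjusted p of 0.000253 in the authors' deposited table. The exons thus moved in opposite directions by nearly the same amount in Qk5 depletion, while both lay close to control in Qk6/7 depletion. Taken as a ratio, use of 6b over 6a was 2.35-fold control in Qk5 depletion and 0.946-fold in Qk6/7 depletion, from folds of the authors' deposited table. The contrast between the depletions was 0.61 for 6a and -0.71 for 6b (log2, Qk6/7 over Qk5) in the authors' deposited table. The flanking common exons did not share the shift. Exon 5 (chr4:43532099-43532169) had log2 folds of -0.03 and 0.05, and exon 7 (chr4:43531274-43531336) 0.01 and -0.05, in Qk5 and Qk6/7 depletion, by the authors' deposited table.

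An intron of 283 nt separates the pair, and it is shown as the sequence between the exons that moved in opposite directions. Capitals mark its longest unbroken run of C and T.
Tpm2 intron between exons 6a and 6b: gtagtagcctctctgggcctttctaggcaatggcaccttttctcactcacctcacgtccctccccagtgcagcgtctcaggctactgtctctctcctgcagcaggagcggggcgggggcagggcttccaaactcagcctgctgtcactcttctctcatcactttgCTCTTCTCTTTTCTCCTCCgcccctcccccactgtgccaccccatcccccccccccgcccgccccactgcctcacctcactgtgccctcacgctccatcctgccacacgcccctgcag
The run is 19 nt long and ends 99 nt before exon 6b. Of the intron's bases, 69.3% are C or T. Across 5983 annotated introns at least as long that are kept in some transcript, the first 283 bases had a median of 50.9%. In 99.5% of these introns that share was lower than in the Tpm2 intron. The Tpm2 intron was taken whole, with its end before exon 6b, while the ends of longer introns were left out. The shares thus come from unlike regions, and the rank is not read further. The Quaking-type core, searched as ACTAAC or ACTAAT on the transcript's strand only, had 0 matches in this intron and 0 in the 179 nt between exons 6b and 7. A match is held by 8.21% of introns in their first 283 bases and by 4.74% in their first 179. These shares again leave out the ends of longer introns. These counts describe letters in the reference and not binding.

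At the same exon position the other genes had no called bin. In Tpm1 the 6a and 6b bins had log2 folds of 0.32 and 0.04 in Qk5 depletion and 0.21 and 0.04 in Qk6/7 depletion, with adjusted p of 1 for each in the authors' deposited table. In Tpm3, 6a stood at 0.05 and 0.01, and 6b at -0.73 (0.603-fold) in Qk5 depletion and 0.4 (1.32-fold) in Qk6/7 depletion, as the authors' deposited table has it. The Tpm3 6b bin had an unadjusted p of 0.0367 and an adjusted p of 1 in the authors' deposited table, so it was not called. As given, Qk5 depletion had less 6b in Tpm3 and more 6b in Tpm2. Use of 6b over 6a in Tpm3 was 0.582-fold control in Qk5 depletion and 1.31-fold in Qk6/7 depletion, and in Tpm1 it was 0.824-fold and 0.889-fold, from folds of the authors' deposited table. Differences between genes were not tested. The 6b exons resemble each other more than the 6a exons do. Tpm1 and Tpm3 6b match Tpm2 6b at 73.7% and 76.3% of bases, against 64.5% and 61.8% for 6a. The intron before exon 6a has an ACTAAC ending 2 nt before the exon in both Tpm1 and Tpm3. The intron before exon 6a of Tpm2 and the one between 6a and 6b of Tpm1 were not searched. In Tpm1 the searched intron, from exon 5 to exon 6a, is 252 nt with 1 match. Of 6389 introns, 7.43% hold one in their first 252 bases. In Tpm3 the intron from exon 5 to exon 6a is 656 nt with 3 matches. Of 3159 introns, 18.9% hold one in their first 656 bases. These shares leave out the ends of longer introns, so they do not give how often a match lies next to an exon. The 571 nt between 6a and 6b of Tpm3 hold 1 more, starting at base 3. A match is held by 608 of 3571 introns in their first 571 bases.

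**Figure D2:**
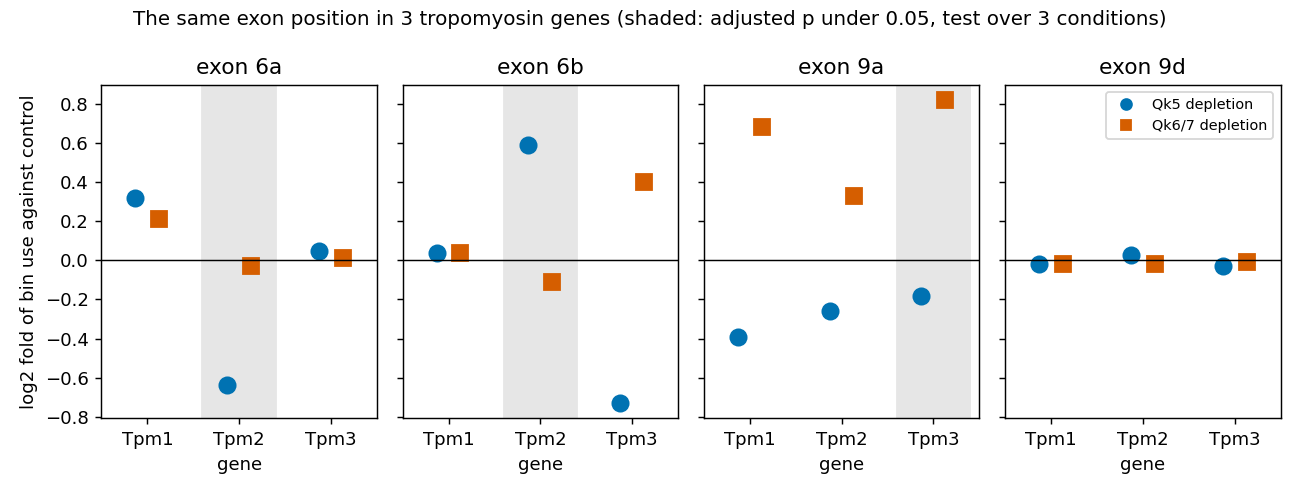
Log2 fold of bin use against control (vertical axis) at exons 6a, 6b, 9a and 9d of Tpm1, Tpm2 and Tpm3, with circles for Qk5 depletion and squares for Qk6/7 depletion and grey bands on bins with adjusted p under 0.05 over the 3 conditions. At 9a the circles lie below 0 and the squares above 0 in all 3 genes, at 9d all points lie within 0.03 of 0, and at 6b Tpm2 and Tpm3 lie on opposite sides.

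At the start of Tpm1, exon 2a was called and had folds below 1 in both depletions. Exons 2a and 2b are the same length, 126 nt, and share 60 of 126 bases (47.6%). They are printed with capitals where they differ from each other.
Tpm1 exon 2a: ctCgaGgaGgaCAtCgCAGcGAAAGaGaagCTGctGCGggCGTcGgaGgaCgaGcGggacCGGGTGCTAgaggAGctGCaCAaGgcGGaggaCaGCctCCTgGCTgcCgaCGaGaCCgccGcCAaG
Tpm1 exon 2b: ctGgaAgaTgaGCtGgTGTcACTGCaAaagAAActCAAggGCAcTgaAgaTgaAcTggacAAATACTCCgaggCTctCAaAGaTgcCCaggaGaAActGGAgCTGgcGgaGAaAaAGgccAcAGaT
Exon 2a is richer in G and C, at 68.3% against 50.0% for 2b.

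Exon 2a (chr9:66895931-66896056, mm9, minus strand), the smooth muscle form, had log2 folds of -1.03 (0.49-fold) in Qk5 depletion and -0.77 (0.586-fold) in Qk6/7 depletion, with a DEXSeq adjusted p of 9.12e-05 in the authors' deposited table. It was the lowest Tpm1 bin in Qk6/7 depletion and the one called tropomyosin bin whose log2 fold was 0.3 or more in size, with the same sign, in both depletions. Its partner 2b (chr9:66895593-66895718) stood at 0.05 and 0.13, with an adjusted p of 1 in the authors' deposited table. Use of 2b over 2a was therefore 2.11-fold control in Qk5 depletion and 1.87-fold in Qk6/7 depletion, from folds of the authors' deposited table. The partner's fold was near 1 although 2a was lower. Without a read level per bin, whether 2b took up the use lost by 2a is not known here. The start exons on either side, 1a and 1b, stood at 0.13 and -0.14 in Qk5 depletion and at 0.19 and -0.17 in Qk6/7 depletion, with adjusted p of 1 in the authors' deposited table. Among annotated coding transcripts of Tpm1, 2 hold 2a alone, 7 hold 2b alone, 1 holds both, and the rest of the 16 hold neither.

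The start of Tpm3 carried the largest folds of all tropomyosin bins and was not called. Exon 1a (chr3:89876616-89876772, mm9, plus strand), which opens the long muscle forms, stood at 4.38 on the log2 scale (20.8-fold) in Qk5 depletion and 2.2 (4.59-fold) in Qk6/7 depletion, with an adjusted p of 0.0537 in the authors' deposited table. Exon 2b (chr3:89877642-89877767), which follows it in the same transcripts, stood at 4.28 (19.4-fold) and 2.47 (5.54-fold), with an adjusted p of 0.0946 in the authors' deposited table. The 2 neighbouring exons had nearly equal values in each depletion, and the direction was the same in both. Exon 1b (chr3:89883587-89883785), the start of the short nonmuscle forms, stood at -0.07 and -0.09 in the authors' deposited table. The tables hold no read level per bin, so how often control cells used the 1a start is not known here. The dispersion of these bins, the deposited measure of spread between replicates, was 0.0381 and 0.0249, and that of the called Tpm1 9c and 9a extension bins was 0.0205 and 0.022 in the authors' deposited table. The median over uncalled bins of the authors' deposited table was 0.00182.

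At the ends of the genes, exon 9a carried the same signs in all 3. Exon 9a encodes the striated muscle C-terminus, and its first 79 nt are printed with capitals where Tpm1 and Tpm3 differ from each other and, in the line for Tpm2, where it differs from Tpm3.
Tpm3 exon 9a: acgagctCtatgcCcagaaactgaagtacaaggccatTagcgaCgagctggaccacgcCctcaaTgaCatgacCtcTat
Tpm1 exon 9a: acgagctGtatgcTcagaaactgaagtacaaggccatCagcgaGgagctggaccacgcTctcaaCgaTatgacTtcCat
Tpm2 exon 9a: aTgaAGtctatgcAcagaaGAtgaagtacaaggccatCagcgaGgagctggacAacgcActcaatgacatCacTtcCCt
Tpm3 matches Tpm1 at 70 of 79 bases (88.6%) and Tpm2 at 65 of 79 (82.3%), and Tpm1 matches Tpm2 at 66 (83.5%). These shares are above those of the 6a and 6b exons.

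Exon 9a of Tpm3 (chr3:89894935-89895013) had log2 folds of -0.18 (0.883-fold) in Qk5 depletion and 0.82 (1.77-fold) in Qk6/7 depletion, with an adjusted p of 0.000212 in the authors' deposited table. Among the 6 called bins it was the one whose log2 fold was further from 0 in Qk6/7 depletion than in Qk5 depletion. Its neighbours, the common exon 8 (chr3:89893932-89894001) and the alternative end 9d (chr3:89903450-89904526), stood at 0.08 and -0.03 in Qk5 depletion and at -0.01 for each in Qk6/7 depletion, as the authors' deposited table has it. Exon 9a of Tpm1 (chr9:66877471-66877549) stood at -0.39 and 0.68, and that of Tpm2 (chr4:43527734-43528875) at -0.26 and 0.33, in Qk5 and Qk6/7 depletion, by the authors' deposited table. Both had adjusted p of 1 and were not called. The deposited dispersion of 9a was 0.086 for Tpm1, 0.102 for Tpm2 and 0.000601 for Tpm3. For the Tpm3 6b bin, which was not called, it was 0.000745. What set the 9a calls apart was not tested, and the read level per bin is not known here. Exon 9d stayed within 0.03 of 0 in all 3 genes and both depletions in the authors' deposited table. In Tpm2, 2 annotated coding transcripts hold both the 9a and 9d bins, 1 holds 9d alone and 0 hold 9a alone. The Tpm2 9d bin is thus not an end exclusive of 9a. The Tpm2 9a bin runs on to the start of 9d. Of its 1142 nt, 80 are coding, so most of it lies outside the striated coding end.

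**Figure D3:**
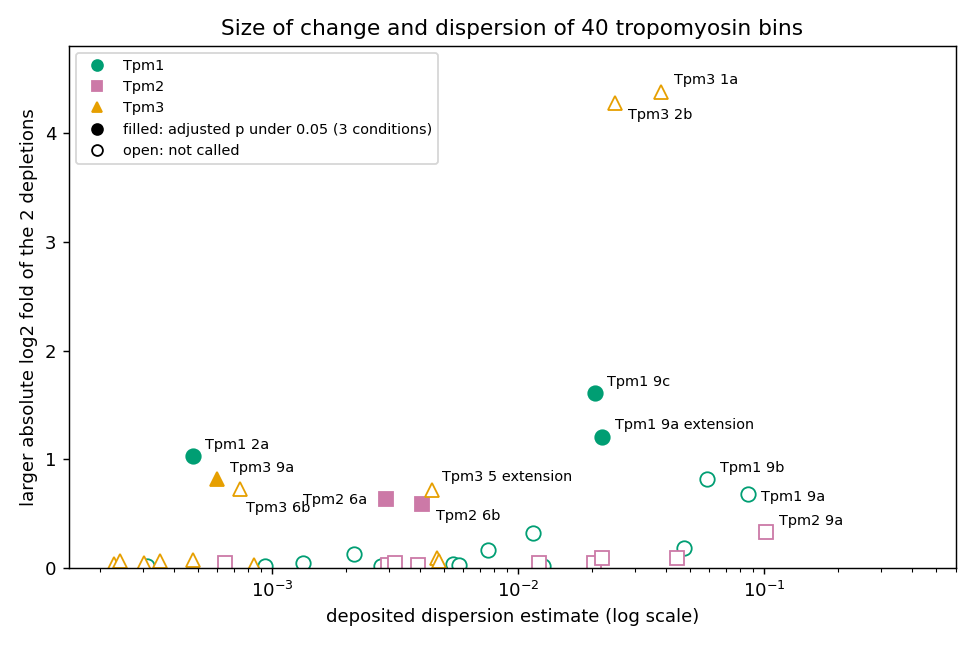
The larger absolute log2 fold of the 2 depletions (vertical axis) against the deposited dispersion estimate (horizontal axis, log scale) for the 40 tropomyosin bins with a value, with circles for Tpm1, squares for Tpm2 and triangles for Tpm3. Filled points are the 6 bins with adjusted p under 0.05, and the open points of Tpm3 1a and 2b have the largest folds, at dispersions of 0.0381 and 0.0249, beside 0.0205 and 0.022 for the filled points of Tpm1 9c and the Tpm1 9a extension.

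The end of Tpm1 held 2 further called bins with opposite signs in Qk5 depletion. The bin directly after 9a (chr9:66876828-66877470, 643 nt), an extension of that exon with 1 coding base, stood at -1.21 (0.432-fold) in Qk5 depletion and 0.17 (1.13-fold) in Qk6/7 depletion, with an adjusted p of 0.0241 in the authors' deposited table. Of 16 annotated coding transcripts, 1 holds this extension and 4 hold 9a, which was not called. Exon 9c (chr9:66871649-66872372, 724 nt), the end exon known from brain, stood at 1.61 (3.05-fold) in Qk5 depletion and 0.05 (1.04-fold) in Qk6/7 depletion, with an adjusted p of 7.58e-05 in the authors' deposited table. Exon 9c had the highest fold of the called bins, and it lay at control in the other depletion. Exon 9b (chr9:66875697-66875974), the last exon of the striated form, had log2 folds of -0.2 in Qk5 depletion and 0.82 (1.77-fold) in Qk6/7 depletion, with an unadjusted p of 0.027 and an adjusted p of 1 in the authors' deposited table. The signs of 9b were those of 9a, with which it shares 3 annotated coding transcripts. A further 2 hold 9b without 9a, and 1 holds 9a without 9b. Exon 9d (chr9:66870400-66871248) stood at -0.02 in both, so its use relative to 9c was 0.323-fold control in Qk5 depletion and 0.953-fold in Qk6/7 depletion, from folds of the authors' deposited table. Of the 724 nt of the 9c bin, 71 are coding.

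Between the depletions, the deposited contrast of Qk6/7 over Qk5 ran from -1.56 (Tpm1 9c) to 1.37 (Tpm1 9a extension) over the called bins in the authors' deposited table. It was 1.0 for Tpm3 9a and 0.25 for Tpm1 2a in the authors' deposited table, so 2a was the called bin with the smallest contrast. The contrast has no test of its own. In absolute value the 6 called bins had a median log2 fold of 0.835 in Qk5 depletion and 0.14 in Qk6/7 depletion, beside 0.56 and 0.27 for the 231 called bins of the authors' deposited table. Of the bins not named common, 18 had a value and were not called. They include Tpm2 1a, which 4 of 4 annotated coding transcripts hold. Among the 18, 8 had a log2 fold of 0.3 or more in either direction in at least 1 depletion. These 8 were Tpm1 6a, 9a and 9b, Tpm2 9a, and Tpm3 1a, 2b, 6b and the extension of exon 5. That extension, 323 nt of retained sequence held by 0 of 7 annotated coding transcripts, stood at -0.72 and -0.25 with an adjusted p of 1 in the authors' deposited table. The rest of the 18 bins were nearer to control.

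No tropomyosin gene was among the 1036 genes of the authors' deposited expression table, which is limited to genes whose adjusted p is below 0.1 in either depletion, so their total RNA level is not known here. Of a list of 43 thin filament and actin regulator genes, 10 are in that table. In Qk5 depletion 7 of the 43 rose and 0 fell by the DESeq test (adjusted p under 0.05) of the authors' deposited table, where 2.17% of all 16604 genes tested rose and 0.801% fell. A listed gene has values here only if it passed the table's limit in either depletion, so nothing is read from the direction or median of the 10, and the other listed genes have no value. In bulk RNA a change in each cell and a change in the share of differentiating cells cannot be told apart.

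Acta1, skeletal muscle actin, rose from a mean signal of 475.2 in control to 1325 in Qk5 depletion, a fold of 2.787 in the authors' deposited table (DESeq adjusted p = 5.462e-05). The troponin I gene Tnni1 rose 3.317-fold (adjusted p = 5.397e-06) and the troponin C genes Tnnc1 and Tnnc2 rose 2.498-fold and 3.081-fold (adjusted p = 0.001339 and 0.001366) in the authors' deposited table. Neb (nebulin, which runs along the thin filament) rose 3.085-fold, its relative Nebl 5.1-fold from a mean of 4.45, and Lmod3, which nucleates actin filaments, 3.83-fold in the authors' deposited table, with adjusted p of 0.002499, 0.02233 and 0.001688. The rises thus covered actin, troponin and nebulin. Actc1 (3.008-fold, adjusted p = 0.06883), Tnni2 (2.027-fold, 0.06011) and Tnnt1 (1.888-fold, 0.1851) were not called in the authors' deposited table. In Qk6/7 depletion 0 of the 43 were called by DESeq, while 3 of the 10 in the authors' deposited table had an unadjusted p under 0.05. Over all 16564 genes tested in that comparison 0.61% rose and 1.29% fell.

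**Figure D4:**
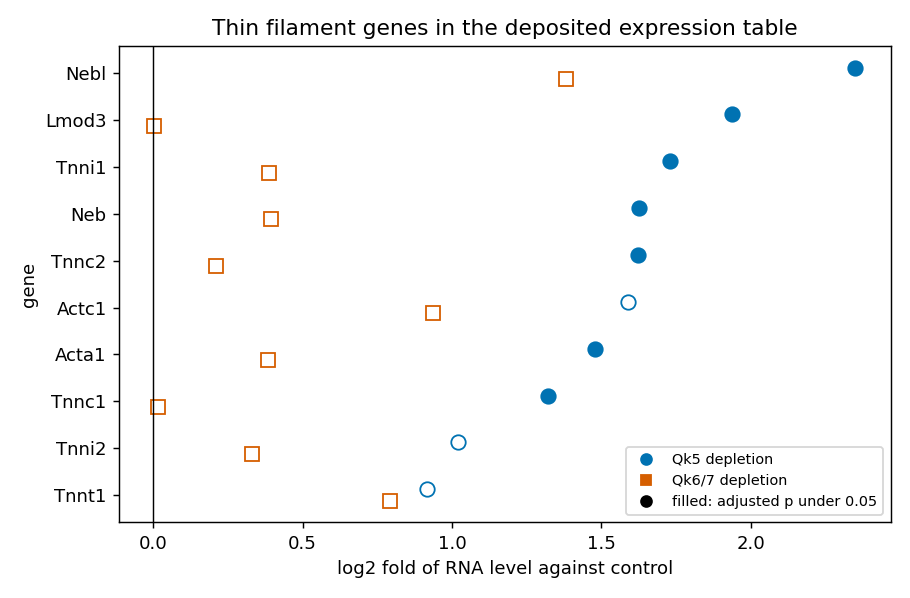
Log2 fold of RNA level against control (horizontal axis) for the 10 thin filament and actin regulator genes of the deposited expression table (vertical axis), with circles for Qk5 depletion and squares for Qk6/7 depletion. Filled symbols have an adjusted p under 0.05 in that comparison of the authors' deposited table, which 7 circles and 0 squares do.

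Of 13 marker genes for myoblasts, muscle and other cell types, 3 are in the authors' deposited expression table. Myog, which marks the onset of muscle differentiation, rose from 153.5 to 389.9 in Qk5 depletion (2.54-fold, DESeq adjusted p = 0.0006601) and was 1.511-fold in Qk6/7 depletion (adjusted p = 0.4756) in the authors' deposited table. Myf5, a myoblast regulator, rose from 810 to 1521 in Qk6/7 depletion (1.878-fold, DESeq adjusted p = 0.005865), and Cd68, a lysosomal protein used as a macrophage marker, fell from 56.59 to 19.32 (0.3414-fold, adjusted p = 0.005007) in the authors' deposited table. The other 10 markers are outside the table, so the myoblast and macrophage lists could not be checked in full. The part of these shifts in the exon folds was not tested.

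Among 29 splicing factors, several known to act on tropomyosin or muscle exons, 3 are in the authors' deposited expression table. Qk itself fell from a mean signal of 5875 to 3267 in Qk5 depletion (0.5561-fold, DESeq adjusted p = 0.002464) and was 0.8971-fold in Qk6/7 depletion (adjusted p = 1) in the authors' deposited table. These are values of the whole gene, so depletion of each isoform was not checked. In Qk6/7 depletion Celf2, which regulates muscle and brain exons, fell from 1903 to 1048 (0.5509-fold, DESeq adjusted p = 0.0124) and Rbm38 rose from 112 to 233 (2.081-fold, adjusted p = 0.01784) in the authors' deposited table. Neither was called in Qk5 depletion, where Celf2 was 1.063-fold and Rbm38 1.199-fold in the authors' deposited table, and the difference between the depletions was not tested. The polypyrimidine-tract proteins Ptbp1 and Ptbp2 were among the listed factors outside the expression table.

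Of both lists, 4 genes had a called exon bin in the authors' deposited splicing table, in which 192 genes did. How many genes and how many bins of the listed genes were tested is not known here, so no share over all genes stands beside this count and nothing is read from it. In Capzb, which caps actin filaments, a bin of 113 nt had log2 folds of -0.82 in Qk5 depletion and 1.15 in Qk6/7 depletion (DEXSeq adjusted p = 0.0392) in the authors' deposited table. Celf2 had a bin of 4432 nt at -0.46 and 1.11 (adjusted p = 0.000436), and Celf1 a bin of 1687 nt at -0.1 and -0.96 (adjusted p = 0.00255), in the authors' deposited table. Mbnl1, whose protein promotes adult muscle splicing, had a bin of 1049 nt at -0.19 and 0.07 (adjusted p = 0.00599) in the authors' deposited table. The bins of Capzb, Celf2 and Mbnl1 had opposite signs in the depletions, and that of Celf1 had the same sign in both.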

How the data were processed

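RNA-seq of 9 control, Qk5-depleted and Qk6/7-depleted samples (3 per group, replicate 1 of each in 2 runs) was used. The panQk depletion, with 1 replicate, was left out of every comparison. The authors used TopHat2, Bowtie2, SAMtools, bedtools and DESeq with the mm9 build, per the submitters' processing notes, which give no versions. For read counting and strand, the sources used here give no setting.

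Per the file headers, the splicing tables hold the authors' log2 folds of bin use, a dispersion score, and per bin 1 p-value from DEXSeq with its adjusted value. The expression table holds, per the file headers, the authors' mean signal (baseMean) per condition, the fold (ratio) and its log2, and DESeq p-values. The tables have 0 columns of per-sample values, so no model was refitted, no SD can be given and depth per sample is unknown. For 1 expression row broken across columns, the fields were rejoined.

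Bins and genes were called at a deposited adjusted p under 0.05. The numbers tested were recomputed from the deposited p and adjusted p by the Benjamini-Hochberg method, a step checked on simulated data. The named bins were each called bin, its neighbours and mutually exclusive partners, and the highest and lowest bin per gene and depletion. The members and gene lists were chosen with earlier results of these data known.

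Exon names follow common tropomyosin usage. Exons were matched by structure to GENCODE M21 (GRCm38), with 1 constant shift per gene: 27 of 32 bin ends of Tpm1, 22 of 24 of Tpm2 and 22 of 26 of Tpm3 fell on annotated ends, against 2 for the next best shift in each gene. Coordinates printed are the mm9 ones of the deposited tables. Sequences are from GENCODE M21 transcripts, and chromosomes from its annotation. RefSeq lists 3 Tpm3-rs pseudogenes, with which Tpm3 may share reads. Python 3.11.15, numpy 2.4.6 and matplotlib 3.10.9 were used. Alternatives were adjusted p thresholds of 0.1 and 0.01, the shorter deposited table, a smallest bin width of 20 nt, and folds centred on each gene's median.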

Additional observations from a re-analysis of the deposited data

How the results depend on the processing

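The count of called tropomyosin bins was 6, and it was 8 at an adjusted p of 0.1 (adding Tpm3 1a and 2b), 5 at 0.01, 6 in the shorter deposited table and 6 among bins of at least 20 nt. The ranges of log2 folds along each gene did not change when only bins with an adjusted p were used. Centring on the gene's median bin moved no log2 fold of the 26 named bins by more than 0.05, and no sign of a called bin turned. For the thin filament genes in Qk6/7 depletion the count was 1 at an adjusted p of 0.1 (Tnnt1) against 0 at 0.05, and for splicing factors it was 0 at 0.01 against 2. In Qk5 depletion the thin filament count was 7, with 9 at 0.1 and 6 at 0.01. No paired analysis was possible because the deposited tables hold no value per replicate, and for the same reason no replicate could be left out. The DEXSeq p covers 3 conditions at once, so which depletion a call rests on was not tested, and bin use is relative to the gene, so a shift in one bin moves the others.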
